A study of Mus musculus with 4 samples.

Results

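Fgf5, Otx2, Pou3f1, Zic2, Lef1, Sox4 and Sox3 are genes used as markers of formative and primed pluripotency, and they were read from the gene counts of wild type (WT) and Pim3-/- mouse embryonic stem cells (ESCs). The 7 genes were chosen by name, as rows of a table of 55418 gene symbols, and all 7 had a row with a value in each of the 4 libraries. Otx2, Pou3f1, Zic2, Lef1, Sox4 and Sox3 passed the filter on low counts, as did 18444 genes in all. Fgf5 did not, so its counts are given without a test.

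The series asked how the transcriptome of ESCs changes when Pim3, a serine/threonine kinase gene that responds to LIF, is lost. All cells were of the E14 line, given as strain 12910la in the labels, and all were grown on gelatin in serum with leukaemia inhibitory factor (LIF). The control group was 2 WT cultures, and the knockout group was 2 Pim3-/- clones made with Cas9 and guide RNAs against Pim3, 1 library each. Each knockout library came from its own clone and the WT libraries from cultures. An effect of the knockout and the differences between single clones and cultures of 1 line therefore cannot be told apart. The p-values measure the spread between these libraries. The labels do not say which clone was replicate 1 or 2.

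The libraries held between 22029427 and 25668307 counts on genes. Levels below are counts per 1000000 counts (CPM) after scaling by trimmed mean of M-values (TMM) factors, which were 0.828 and 0.883 in WT and 1.17 and 1.17 in Pim3-/- ESCs. The replicates correlated at 0.990 (WT) and 0.968 (Pim3-/-) in log CPM across genes, and libraries of different groups at 0.929 to 0.946. For Pim3 itself the WT libraries held 4392 and 4953 counts and the Pim3-/- libraries 4970 and 4804 (224 ± 7.50 against 186 ± 0.10 CPM, SD, n = 2, edgeR adjusted p = 0.251), and a count over the whole gene does not show small deletions, so it neither checks nor contradicts the genotype labels. The pluripotency genes Pou5f1 and Sox2 were at 2247 and 275 CPM in WT and at 1030 and 358 CPM in Pim3-/- ESCs, so the defining markers of the labelled cell type were present in both groups.

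Pluripotency passes through several states. Naive cells resemble the epiblast before implantation and use factors such as Klf4, Tbx3 and Nanog. Formative cells, which have left the naive state and gained the competence to form germ layers, and primed cells, which resemble the later epiblast, keep Pou5f1 and Sox2 and turn on another set of genes. Among these are the growth factor gene Fgf5, the homeobox gene Otx2, the POU domain gene Pou3f1, the zinc finger gene Zic2, the gene of the Wnt-responsive factor Lef1 and SOX genes such as Sox3 and Sox4. Cultures in serum with LIF are known to be mixed, with cells that differ in their levels of naive factors.

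Relative to WT, 5 of the 6 tested markers were higher in Pim3-/- ESCs and 1, Pou3f1, was lower (edgeR quasi-likelihood test, Benjamini-Hochberg adjusted p under 0.05 over all tested genes). By the same rule 17.6% of all tested genes were higher and 16.2% were lower. The markers were chosen with earlier results of these data known, so setting them beside these shares is a description and not a test. Without WT replicate 1 or WT replicate 2, 3 markers (Zic2, Lef1 and Sox3) were called higher and 0 lower (1 lower at an unadjusted p under 0.05), and with library totals 5 were called higher and 0 lower. The median log2 fold change of the 6 markers was 1.57, beside 0.07 over all tested genes. At the study's volcano limits, at least 3-fold and adjusted p under 0.05, Zic2, Lef1 and Sox3 were higher and Pou3f1, at 2.06-fold lower, did not reach the limit, against 8.47% of all tested genes higher and 1.38% lower. Without Pim3-/- replicate 2 only Lef1 and Sox3 were beyond these limits, and with library totals Otx2 and Sox4 were as well. The libraries of the 2 groups did not overlap for any of the 6 tested markers, but that held for many genes, since 38.3% of tested genes lay above WT in both Pim3-/- libraries and 34.2% lay below. In bulk RNA, a change in the number of cells that use a gene and a change in the RNA per cell cannot be told apart.

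**Figure D1:**
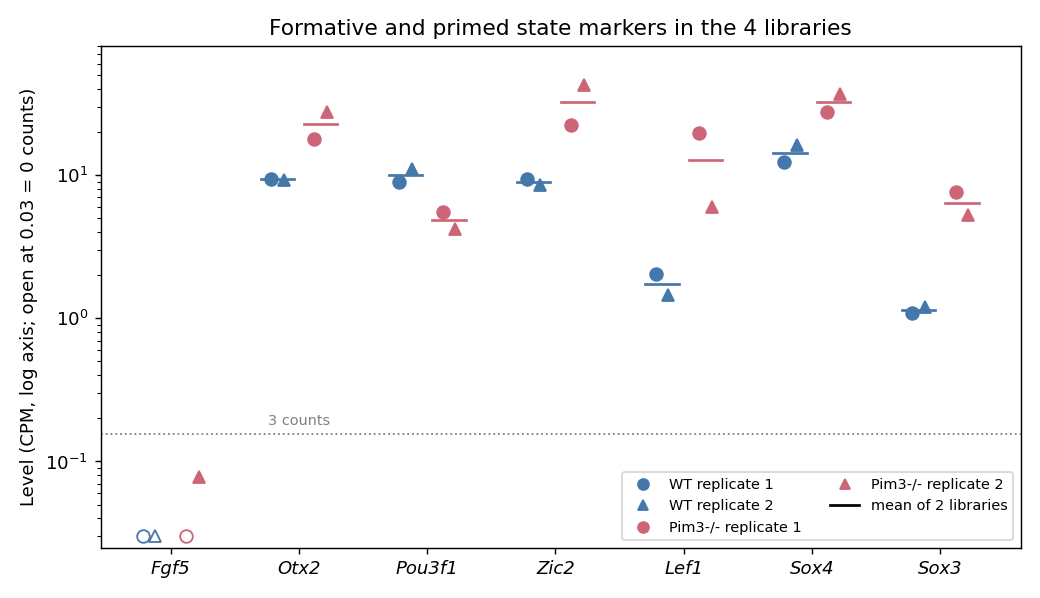
Level of each marker in CPM on a log axis in the 2 WT (blue) and 2 Pim3-/- (red) libraries, with horizontal bars at the mean of 2 libraries, a dotted line at 3 counts in the shallowest library by TMM scaling and open symbols for 0 counts. Otx2, Zic2, Lef1, Sox4 and Sox3 lie higher in both Pim3-/- libraries, Pou3f1 lies lower in both, and Fgf5 lies below the line in every library.

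RefSeq promoter windows were matched for Fgf5, Otx2, Lef1 and Sox4, 4 of the 7 markers. They show the DNA just upstream of 3 markers that were higher and of Fgf5, which was not detected above the limit of 3 counts. Each run is the 250 bases before the RefSeq start site nearest to the 5′ end of the annotated gene, 5′ to 3′ on the strand of the gene, from GRCm38.p6. Capitals mark words found on either strand. In the runs of Fgf5 and Lef1 they are a GC box, spelled GGGCGG, which in Fgf5 lies on the other strand and reads CCGCCC. In the run of Otx2 they are a word bound by SOX factors, spelled ACAAT. In the run of Sox4 they are CCAAT boxes, of which those on the other strand read ATTGG. The windows are chr5:98253934-98254183 (+) for Fgf5, chr14:48667645-48667894 (−) for Otx2, chr3:131110073-131110322 (+) for Lef1 and chr13:28953700-28953949 (−) for Sox4.
Fgf5: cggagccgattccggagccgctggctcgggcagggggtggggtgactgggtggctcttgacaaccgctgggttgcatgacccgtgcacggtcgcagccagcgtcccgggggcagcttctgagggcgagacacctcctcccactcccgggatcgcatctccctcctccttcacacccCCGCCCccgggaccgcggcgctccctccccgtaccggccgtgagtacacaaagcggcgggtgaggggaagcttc
Otx2: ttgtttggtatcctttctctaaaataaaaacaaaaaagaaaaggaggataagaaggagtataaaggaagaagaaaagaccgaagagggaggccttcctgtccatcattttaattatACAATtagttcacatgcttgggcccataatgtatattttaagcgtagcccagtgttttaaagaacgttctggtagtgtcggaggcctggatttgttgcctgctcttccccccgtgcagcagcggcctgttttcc
Lef1: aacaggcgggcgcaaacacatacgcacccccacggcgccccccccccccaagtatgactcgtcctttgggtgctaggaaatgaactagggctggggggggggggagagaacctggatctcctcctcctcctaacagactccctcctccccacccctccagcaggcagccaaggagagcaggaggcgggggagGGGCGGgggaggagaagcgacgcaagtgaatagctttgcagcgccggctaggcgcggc
Sox4: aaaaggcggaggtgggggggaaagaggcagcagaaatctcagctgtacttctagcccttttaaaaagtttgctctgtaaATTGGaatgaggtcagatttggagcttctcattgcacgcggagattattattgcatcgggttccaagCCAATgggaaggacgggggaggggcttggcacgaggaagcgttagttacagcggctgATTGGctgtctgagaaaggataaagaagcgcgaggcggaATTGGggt

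The windows of Fgf5 and Lef1 were rich in G and C (70.8% and 66.4%) and held 24 and 14 CpG, where the median over the 32851 promoters of the table was 6. That of Sox4 held 11 CpG at 50.8% G and C, and that of Otx2, whose start site lies 6175 bases downstream of the 5′ end of the annotated gene, held 6 CpG at 42.0%. Fgf5 and Lef1 had 1 GC box each, a word found in 32.7% of all promoter windows of this length. Sox4 had 4 CCAAT boxes, where 33.8% of all windows had at least 1, and Otx2 had 1 SOX word, found in 27.7%. None of the 4 windows held CTTTGAT, a word bound by LEF1 and TCF factors (3.21% of all windows), TAATCC, a word of OTX factors (6.25%), or the octamer ATGCAAAT (1.60%), and no marked words overlapped. The words were chosen after the sequences were seen and describe these letters only.

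Fgf5 (chr5:98254184-98277030, + strand, GRCm38) encodes a secreted fibroblast growth factor and is the classical marker of the epiblast after implantation. Its counts were 0 and 0 in WT and 0 and 2 in Pim3-/- ESCs. All 4 libraries were thus at or under 3 counts, which correspond to 0.112 to 0.157 CPM, and a difference was not detectable at this depth. Such limits cover counting error only.

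The other genes of FGF signalling were expressed, and 4 of the 9 tested genes of the FGF list rose and 1 fell, with a median log2 fold change of 0.63 over the 9. Fgfr3, a receptor gene, went from 20 and 16 counts to 417 and 198 (log2 fold change 3.74, SE 0.45, edgeR adjusted p = 0.00372). Smaller rises were measured for Fgf15 (0.88, SE 0.22, adjusted p = 0.0215), the decoy receptor gene Fgfrl1 (0.84, SE 0.24, adjusted p = 0.0310) and Fgfr1 (0.54, SE 0.16, adjusted p = 0.0364). Fgf17 fell from 22.0 and 19.3 CPM to 5.96 and 5.82 CPM (log2 fold change −1.81, adjusted p = 0.00369). Fgf4, the main FGF ligand gene of ESCs, was at 203 ± 7.40 CPM in WT and 287 ± 44.3 CPM in Pim3-/- ESCs (SD, n = 2) and did not pass the test (adjusted p = 0.0780), nor did Fgfr2 (−0.24, adjusted p = 0.567) or Fgfr4 (0.86, adjusted p = 0.0703). The calls of Fgf15, Fgfr1 and Fgfrl1 were lost when either WT library was left out (adjusted p from 0.207 to 0.460), and that of Fgfr1 also without a filter (adjusted p = 0.0734) and with the Wald test of DESeq2 (adjusted p = 0.0666).

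Otx2 (chr14:48657677-48673819, − strand) encodes a homeobox factor that drives exit from the naive state and later patterns the anterior brain. The WT libraries held 180 and 210 counts of it and the Pim3-/- libraries 480 and 710. On the CPM scale these were 9.40 and 9.27 in WT and 18.0 and 27.5 in Pim3-/- ESCs, so that the WT libraries were nearly equal and both knockout libraries stood above them. The means of 9.34 ± 0.0886 and 22.8 ± 6.76 CPM (SD, n = 2) gave a log2 fold change of 1.29 (SE 0.25, edgeR adjusted p = 0.0101). With WT replicate 1 or WT replicate 2 left out, Otx2 was no longer called (log2 1.25, adjusted p = 0.0972, and 1.20, adjusted p = 0.0936). Otx1, its close paralog, at 0 and 4 counts in WT against 15 and 9 in the knockout, was not tested, and Crx stayed near 0. Otx2os1, a long noncoding gene on the opposite strand that shares 154 exonic bases with Otx2, had 3, 3, 14 and 12 counts, and reads on bases shared between strands cannot be told apart where the counting is not stated to use strand.

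Pou3f1 (chr4:124656807-124660655, + strand), also called Oct6, encodes a POU domain factor of the epiblast and of neural and Schwann cells, and consists of a single exon. Its counts were 173 and 249 in WT libraries, 148 in Pim3-/- replicate 1 and 108 in replicate 2. As 9.03 and 11.0 CPM in WT and 5.54 and 4.19 CPM in Pim3-/- ESCs, it was the only marker that was lower in both knockout libraries. The log2 fold change was −1.04 (SE 0.27, edgeR adjusted p = 0.0240), from 10.0 ± 1.39 to 4.87 ± 0.959 CPM (SD, n = 2). This fall depended on the scaling, since it was −0.59 when counts were divided by the library totals alone (adjusted p = 0.127), and the call was also lost without WT replicate 1 (−1.23, adjusted p = 0.112) or WT replicate 2 (−0.98, adjusted p = 0.176). The other class III POU genes, Pou3f2, Pou3f3 and Pou3f4, had at most 9 counts in any library and were not tested.

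Zic2 (chr14:122475435-122479852, + strand) encodes a zinc finger factor that binds enhancers in ESCs and epiblast cells and is needed in the early nervous system. Its counts were 180 and 193 in WT, 594 in Pim3-/- replicate 1 and 1095 in Pim3-/- replicate 2. Scaled, these were 9.40, 8.52, 22.3 and 42.5 CPM, so that both knockout libraries lay well above WT and differed from each other by 1.91-fold. Zic2 rose by 1.85 on the log2 scale (SE 0.31, edgeR adjusted p = 0.00686, 8.96 ± 0.620 against 32.4 ± 14.3 CPM, SD, n = 2) and was called in all 10 alternative settings, with a range of 1.30 to 2.31.

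Of the other ZIC genes, Zic5, which lies beside Zic2 in the genome and is transcribed in the other direction, was counted 89 and 129 times in WT and 234 and 324 times in Pim3-/- ESCs. It rose by 1.04 (SE 0.28, edgeR adjusted p = 0.0274), a call that was lost without WT replicate 1 (0.86, adjusted p = 0.274) or WT replicate 2 (1.12, adjusted p = 0.149). Zic1 had 0 counts in both WT libraries and 9 and 10 counts in Pim3-/- ESCs, at least 2.51-fold over the limit of 3 counts per library, and was too low to be tested. Per kilobase of exons, Zic2 was at 3.11 CPM in WT and 11.2 CPM in Pim3-/- ESCs, above Zic5 at 1.06 and 2.18 CPM.

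Lef1 (chr3:131110471-131224356, + strand) encodes an HMG box factor that joins β-catenin at Wnt target genes. Its reads numbered 39 and 33 in WT, 522 in Pim3-/- replicate 1 and 154 in Pim3-/- replicate 2. The levels were 2.04 and 1.46 CPM in WT and 19.6 and 5.97 CPM in Pim3-/- ESCs, so that both knockout libraries were above WT while replicate 1 was 3.27-fold over replicate 2. With 1.75 ± 0.410 against 12.8 ± 9.61 CPM (SD, n = 2), Lef1 had the largest log2 fold change of the 6 tested markers, 2.87 (SE 0.56, edgeR adjusted p = 0.0101). The value without Pim3-/- replicate 1 was 1.76, below those of Zic2 (2.23) and Sox3 (2.18) in the same fit, and that without Pim3-/- replicate 2 was 3.48, with the call kept in all 10 settings. Gm43352, an antisense gene that shares 1208 exonic bases with Lef1 (13.7% of the exonic bases of Lef1), had 5 and 7 counts in WT, 146 in Pim3-/- replicate 1 and 34 in replicate 2 (3.55, SE 0.77, adjusted p = 0.0134). Its call was lost without WT replicate 1 (adjusted p = 0.0601) or WT replicate 2 (adjusted p = 0.0510), and reads of the shared bases cannot be told apart here.

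Of the other genes of the LEF/TCF family, Tcf7 (log2 fold change −0.18, edgeR adjusted p = 0.414), Tcf7l1 (0.44, adjusted p = 0.191) and Tcf7l2 (−0.25, adjusted p = 0.529) were not called, and Tcf7 and Tcf7l1 were above Lef1 per kilobase of exons in both groups. Among 10 tested genes that are inputs or targets of the canonical Wnt pathway, Cdx1 (2.05, SE 0.37, adjusted p = 0.00801) and Nkd1 (1.91, SE 0.37, adjusted p = 0.0102) rose and Notum, a secreted Wnt inhibitor gene, fell (−0.86, SE 0.22, adjusted p = 0.0232). All 3 calls were lost without WT replicate 1 or WT replicate 2, with adjusted p from 0.0541 to 0.189 over these and the library totals, under which Notum was not called either. With library totals 6 genes of the list were called higher, and without Pim3-/- replicate 2 the counts were 6 higher and 1 lower. The widely used target gene Axin2 was at 0.65 (adjusted p = 0.0699, against 1.10 and adjusted p = 0.0117 with library totals), and Ctnnb1, which encodes β-catenin, at −0.12 (adjusted p = 0.649). Lgr5 and T, also listed as targets, were too low to be tested.

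Sox4 (chr13:28948919-28953713, − strand, a single exon) encodes a factor of the SOXC group found in many progenitor cells. Its counts were 238 and 371 in WT and 737 and 954 in Pim3-/- ESCs. The levels of 12.4 and 16.4 CPM in WT and 27.6 and 37.0 CPM in Pim3-/- ESCs did not overlap, and replicates differed by 1.32-fold in WT and 1.34-fold in Pim3-/- ESCs. Sox4 rose by 1.16 on the log2 scale (SE 0.23, edgeR adjusted p = 0.0102, 14.4 ± 2.80 against 32.3 ± 6.64 CPM, SD, n = 2). It was not called without WT replicate 1 (0.93, adjusted p = 0.147) or WT replicate 2 (1.30, adjusted p = 0.0537). More than any other marker, Sox4 shares its exon with another gene, since 2616 of its bases (54.6%) are also exonic in Gm26735, a long intergenic noncoding gene on the opposite strand. Gm26735 had 163, 248, 433 and 525 counts (0.91, SE 0.23, adjusted p = 0.0232), a call lost like that of Sox4 without either WT library (adjusted p = 0.304 and 0.127), and which of both genes the reads came from is uncertain. The other SOXC genes, Sox11 (0.41, adjusted p = 0.224) and Sox12 (0.08, adjusted p = 0.777), did not pass the test.

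Sox3 (chrX:60891366-60893430, − strand, a single exon) encodes a SOXB1 factor, a close relative of Sox2 used in neural progenitors and in the epiblast. Its WT counts of 21 and 27 stood against 203 and 136 in the knockout libraries, or 1.10 and 1.19 CPM against 7.61 and 5.28 CPM. The WT libraries were nearly equal and both knockout libraries stood several-fold above them. The change of 2.49 (SE 0.35, edgeR adjusted p = 0.00487, 1.14 ± 0.0677 against 6.44 ± 1.65 CPM, SD, n = 2) was called in all 10 settings, with a range of 2.18 to 2.93. Sox2 was at 275 ± 31.2 and 358 ± 84.1 CPM and was not called (0.38, adjusted p = 0.218). Sox1 was counted 28 and 23 times in WT, 39 times in Pim3-/- replicate 1 and 154 times in replicate 2, and did not pass the test either (1.59, SE 0.65, adjusted p = 0.0931).

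Per kilobase of exons, the order of mean levels in WT was Zic2 (3.11 ± 0.215 CPM per kb, SD, n = 2), Sox4 (3.004 ± 0.583), Pou3f1 (2.60 ± 0.361), Otx2 (2.21 ± 0.0210), Sox3 (0.554 ± 0.0328), Lef1 (0.199 ± 0.0466) and Fgf5. Zic2, Sox4 and Pou3f1 differed by less than the SD of Sox4. In Pim3-/- ESCs the order was Zic2 (11.2 ± 4.97), Sox4 (6.74 ± 1.39), Otx2 (5.39 ± 1.60), Sox3 (3.12 ± 0.798), Lef1 (1.45 ± 1.09), Pou3f1 (1.26 ± 0.249) and Fgf5. Within this order, Zic2 and Sox4, Sox4 and Otx2, and Lef1 and Pou3f1 did not differ beyond the larger SD of each pair. Pou3f1 thus stood beside Zic2 and Sox4 in WT and beside Lef1 in Pim3-/- ESCs. For comparison, Sox2 was at 134 CPM per kb in WT and 174 in Pim3-/- ESCs, far above every marker in both groups.

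**Figure D2:**
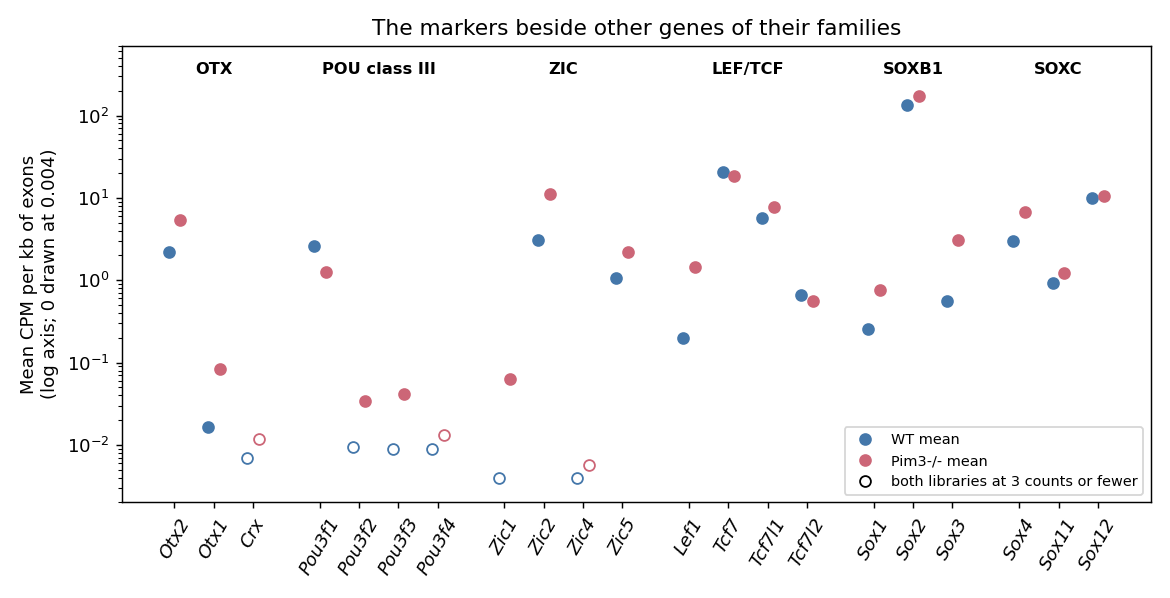
Mean level per kilobase of exons (CPM per kb, log axis, 0 drawn at 0.004) of the markers and of other genes of their families in WT (blue) and Pim3-/- ESCs (red), n = 2 libraries each, with open circles where both libraries held at most 3 counts. Otx2 and Pou3f1 are the highest genes of their families in both groups, whereas Lef1 lies below Tcf7 and Tcf7l1 and Sox3 below Sox2.

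Taken over the 16 listed paralogs of the markers, 9 were tested, of which Zic5 was called higher (edgeR adjusted p under 0.05), with a median log2 fold change of 0.41. With every library kept, no paralog was lower by edgeR, also at an unadjusted p under 0.05, or by the Wald test of DESeq2. With library totals 6 were called higher. The 7 others, Otx1, Crx, Pou3f2, Pou3f3, Pou3f4, Zic1 and Zic4, did not pass the filter.

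The knockout libraries differed more from each other than the WT libraries did. Over all tested genes, the median absolute log2 difference between replicates, on the scale of log2(CPM + 0.5), was 0.16 in WT and 0.31 in Pim3-/- ESCs. Otx2, Zic2 and Sox4 were higher in Pim3-/- replicate 2 (differences, replicate 1 minus replicate 2, of −0.60, −0.92 and −0.42), while Pou3f1, Lef1 and Sox3 were higher in replicate 1 (0.37, 1.63 and 0.49). For Lef1, only 1.14% of tested genes had a larger difference between the knockout libraries, and for Zic2 7.96%. The difference was more usual for the 4 others, with 21.4% of genes beyond that of Otx2, 30.3% beyond Sox3, 37.3% beyond Sox4 and 43.3% beyond Pou3f1. In each knockout library taken alone, the 6 markers kept the direction of the mean.

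**Figure D3:**
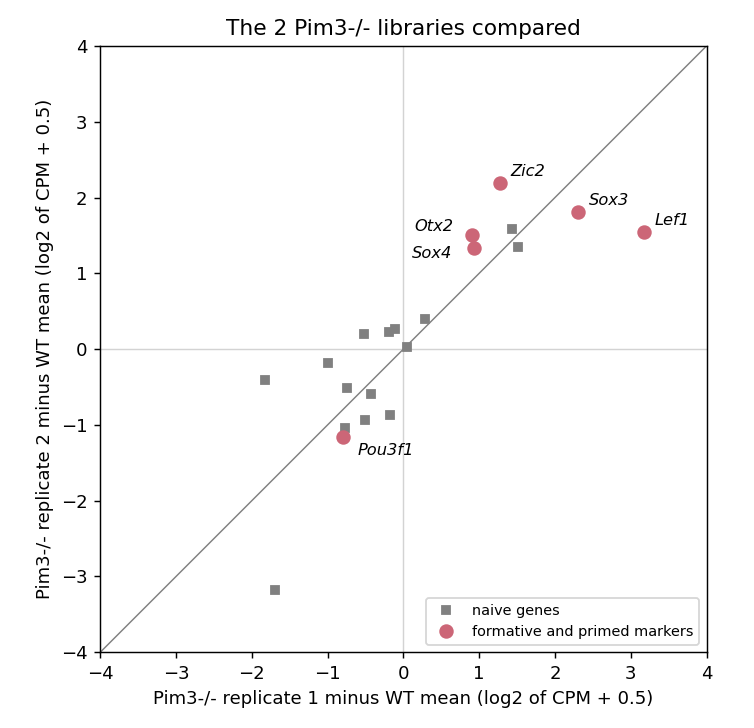
Difference from the WT mean, log2(CPM + 0.5), in Pim3-/- replicate 1 (x axis) and Pim3-/- replicate 2 (y axis) for the 6 tested markers (red circles) and 15 naive genes (grey squares), with a line where both are equal. Lef1 lies below the line, at 3.17 in replicate 1 and 1.54 in replicate 2, and Zic2 above it, at 1.27 and 2.19.

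Since Pou5f1 changed as well, the counts of the markers were also set against 1000 counts of Pou5f1 or of Sox2 in the same library, which needs no scaling factor. Per 1000 counts of Pou5f1, Pou3f1 had 3.84 and 5.14 in WT and 5.02 and 4.38 in Pim3-/- ESCs, so the groups overlapped and the ratio of means was 1.05. The 5 other tested markers did not overlap on this measure and had ratios of means between 4.92 (Sox4) and 15.5 (Lef1). As Pou5f1 itself fell, 83.6% of all tested genes lay above WT in both Pim3-/- libraries on this measure and 3.04% below. Per 1000 counts of Sox2, which did not pass the test of a change, Pou3f1 fell below WT in both knockout libraries (35.7 and 37.0 against 18.6 and 10.0), and the 5 others lay above WT with ratios of means from 1.74 (Sox4) to 6.17 (Lef1), where 22.3% of all tested genes lay above WT in both and 43.8% below. These ratios were not tested, because an exact permutation test of 2 against 2 libraries cannot give a p below 0.333.

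The 24 other genes listed for the formative and primed states did not move in 1 direction. All were tested, 4 were called higher, 3 were called lower and 17 were not called (edgeR adjusted p under 0.05), and the median log2 fold change was 0.12. By the same rule 17.6% of all tested genes were higher and 16.2% were lower, shares to be set beside the counts of every list here. With library totals, 6606 of all 18444 tested genes were called higher and 1092 lower. Among those that rose were Zic5 and Fgf15, described above, and Nodal, the gene of a ligand that maintains the primed state (0.78, SE 0.21, adjusted p = 0.0260). Those that fell were Dnmt3b, a de novo DNA methyltransferase gene of the formative epiblast (−1.30, SE 0.21, adjusted p = 0.00636), Mycn (−0.97, SE 0.18, adjusted p = 0.00880) and Utf1 (−0.97, SE 0.24, adjusted p = 0.0209). Dnmt3a (0.09, adjusted p = 0.760), Foxd3 (−0.02, adjusted p = 0.952), Etv5 (0.06, adjusted p = 0.818) and Tead2 (0.00219 on the log2 scale, adjusted p = 0.993) were among those not called. Without WT replicate 1 or WT replicate 2, the count was 1 higher and 1 lower, the latter Dnmt3b, and with library totals 9 were called higher and 1 lower.

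Of 15 naive genes, 2 rose and 5 fell, with a median log2 fold change of −0.48. The 2 that rose were Tbx3 (1.51, SE 0.18, edgeR adjusted p = 0.00369) and Klf4 (1.44, SE 0.17, adjusted p = 0.00369), both factors of the naive network. Dppa3, a maternal and germline factor that marks naive cells within serum cultures, fell most, from 16.6 and 13.5 CPM to 4.31 and 1.20 CPM (−2.44, SE 0.51, adjusted p = 0.0121). Nanog (−0.90, adjusted p = 0.0155), Gbx2 (−0.73, adjusted p = 0.0419), Fbxo15 (−0.63, adjusted p = 0.0378) and Nr5a2 (−0.51, adjusted p = 0.0494) also fell, while Esrrb (0.03, adjusted p = 0.903), Klf2 (0.09, adjusted p = 0.760) and Zfp42 (−0.48, adjusted p = 0.178) were not called. The paper instead reports Nanog as raised in Pim3-/- ESCs by qPCR and western blot. By qPCR it reports Oct4 (Pou5f1) as not disrupted. The reason for the difference from these counts was not tested. With library totals, and without WT replicate 1 or WT replicate 2, only Dppa3 was called lower. Klf4 and Tbx3 lost the call without WT replicate 1 (adjusted p = 0.0514 and 0.0518). Among 8 core pluripotency genes, Pou5f1 (−1.12, SE 0.22, adjusted p = 0.00993), Dppa4 (−1.22), Dnmt3b and Utf1 were lower and Sall4 (0.84) was higher. Without WT replicate 1 the core genes called lower numbered 1 and without WT replicate 2 they numbered 2, as Pou5f1 (adjusted p = 0.0964 and 0.0531) and Utf1 (adjusted p = 0.136 and 0.0754) lost the call in both cases and Dppa4 (adjusted p = 0.0503) in the first. Sall4 was not called in either (adjusted p = 0.193 and 0.182), and with library totals 3 core genes were called higher and 3 lower.

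**Figure D4:**
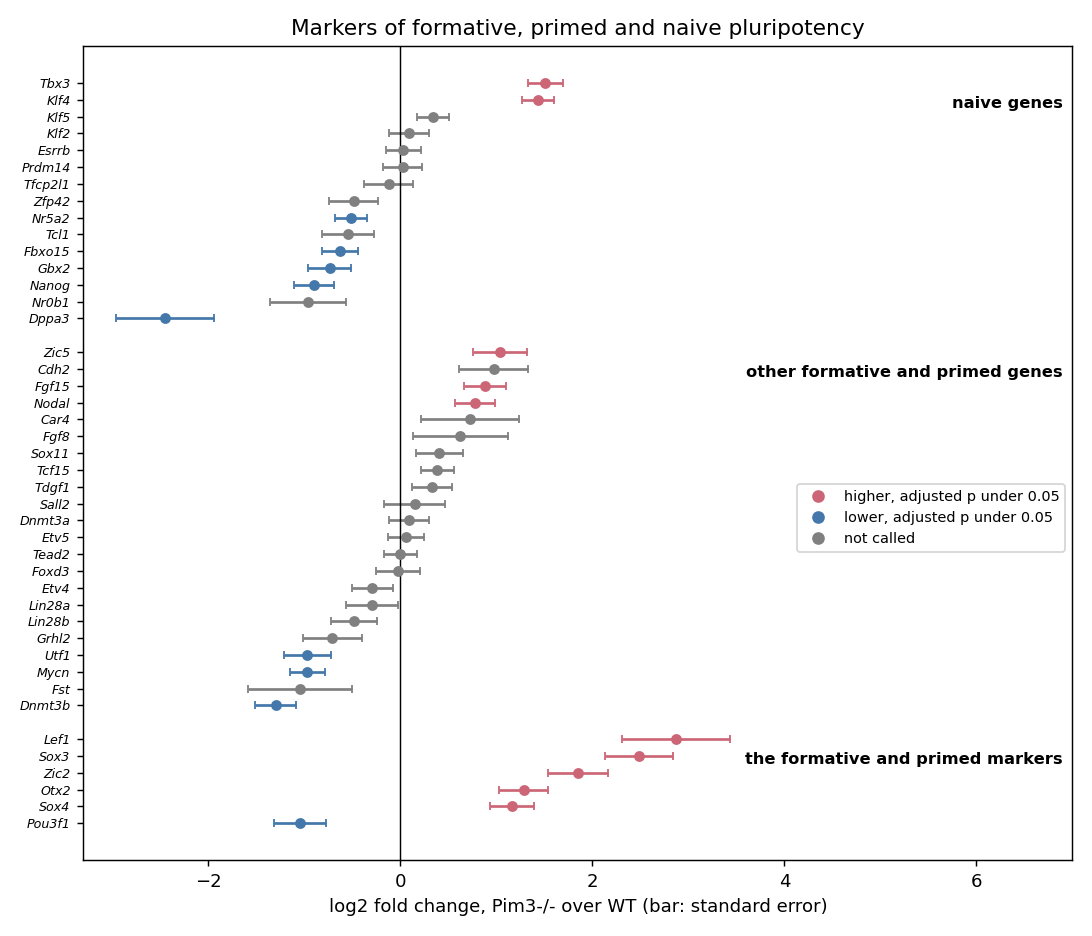
Log2 fold change of Pim3-/- over WT ESCs with its standard error for the 6 tested markers, 22 of the 24 other formative and primed genes and 15 naive genes (n = 2 libraries per group), coloured by the edgeR call at adjusted p under 0.05. The markers lie between −1.04 and 2.87, with Pou3f1 alone below 0, and both other lists hold genes on either side of 0.

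Several markers are also used by cells other than pluripotent ones, so genes of other cell types were read in the same libraries. Of 14 neuroectoderm markers, 9 were tested, 2 rose (among them Elavl3, 1.07) and 2 fell (Stmn2, −0.94, and Tubb3, −0.78), with summed levels of 979 and 858 CPM in WT and 523 and 502 CPM in Pim3-/- ESCs. Stmn2 alone was at 826 and 713 CPM in WT and at 396 and 407 CPM in Pim3-/- ESCs. Tubb3 was at 127 and 120 CPM in WT and at 85.7 and 58.8 CPM in Pim3-/- ESCs. The lower sums thus came mainly from these 2 genes. Over the 9 tested genes, the log2 fold changes had a median of 0.28. The calls of Elavl3, Stmn2 and Tubb3 were lost without WT replicate 1 or WT replicate 2 (edgeR adjusted p from 0.0653 to 0.175). With library totals 4 were called higher and Stmn2 (adjusted p = 0.0660) and Tubb3 (adjusted p = 0.249) were not called. Dcx was at 0 in every library, and Pax3, Neurog1 and Neurog2 were too low to be tested. Of 12 primitive streak and mesoderm markers, 6 were tested and Eomes rose (2.24, adjusted p = 0.00720), with sums of 9.09 and 7.95 CPM in WT and 18.3 and 29.1 CPM in Pim3-/- ESCs, and T was untested. Of 15 primitive endoderm markers, 13 were tested and 11 rose, among them Sox7 (5.27), Col4a2 (3.29) and Gata6 (3.22), with sums of 449 and 466 CPM in WT and 755 and 727 CPM in Pim3-/- ESCs. Of 11 trophoblast markers, 9 were tested and Gata3, Ascl2 and Eomes rose, with sums of 161 and 161 CPM in WT and 135 and 167 CPM in Pim3-/- ESCs. Gata3 (edgeR adjusted p = 0.197 and 0.213) and Ascl2 (adjusted p = 0.0855 and 0.0683) were not called without WT replicate 1 or WT replicate 2, nor was Gata3 with the Wald test of DESeq2 (adjusted p = 0.0795). Of 8 fibroblast markers, 2 were tested and neither was called by edgeR, also at an unadjusted p under 0.05, or by DESeq2, whereas 1 was called higher with library totals and 2 without Pim3-/- replicate 2, with sums of 21.6 to 22.7 CPM in WT and 20.5 to 25.6 CPM in Pim3-/- ESCs. Of 9 markers of two-cell-like cells, a rare state of ESC cultures, 8 rose, among them the near-identical Zscan4f (3.63) and Zscan4c (3.02), with sums of 19.2 and 14.7 CPM in WT, 171 CPM in Pim3-/- replicate 1 and 48.7 CPM in replicate 2. Without WT replicate 1 or WT replicate 2 the number called higher was 5 and 4 for this list and 6 and 9 for the primitive endoderm list. The sum of the two-cell-like list was higher in Pim3-/- replicate 1, as was Lef1. That also held for the sums of the primitive endoderm, neuroectoderm and fibroblast lists. The sums of the primitive streak and trophoblast lists were higher in replicate 2. The part of any of these cell types in the levels of the 7 markers was not tested.

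For each tested marker, the genes with the most similar profile over the 4 libraries were looked up among 10468 genes with a mean of at least 5 CPM, by the Euclidean distance between centred log2 profiles. Otx2 was closest to Sptbn4 (distance 0.054) and Reck (0.075), and Pou3f1 to Pdcl (0.059) and Arc (0.099). Zic2 was closest to Cdx1 (0.071), named above, and Snai1 (0.14). Lef1 was closest to Zscan4-ps3 (0.23) and Zscan4c (0.31), members of a cluster of near-identical copies whose single counts are uncertain, with 2.14, 1.81, 25.3 and 6.52 CPM for the first of them. Sox4 was closest to Med13l (0.013) and Mycbp2 (0.072), and Sox3 to Dusp9 (0.18) and Pgm1 (0.20). With 4 points from 2 groups, such likeness is a description of these libraries.

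**Figure D5:**
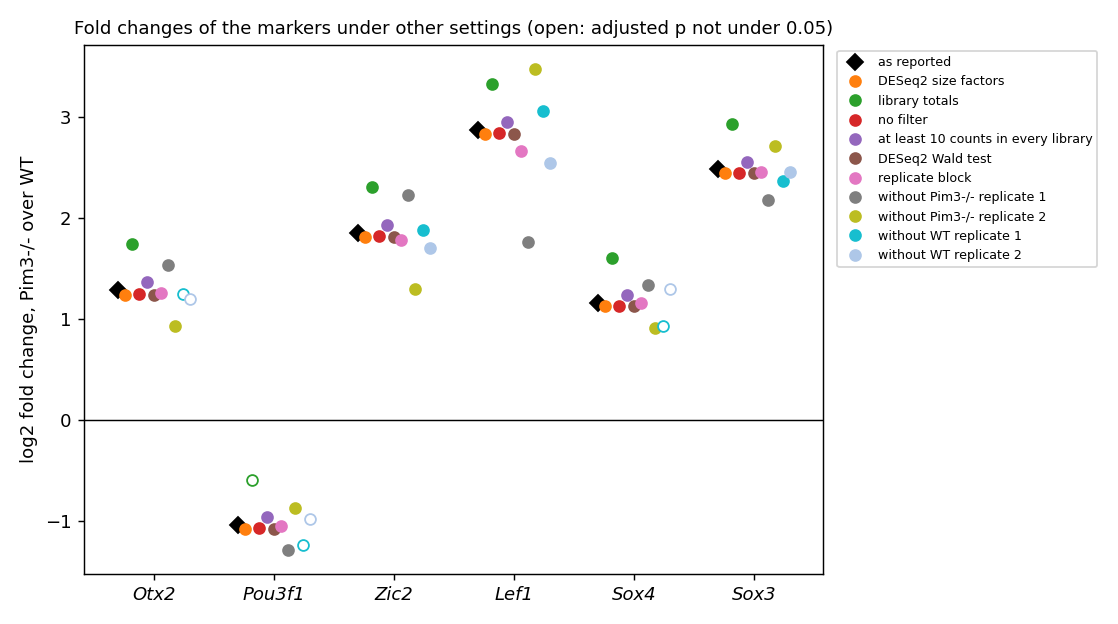
Log2 fold change of each tested marker, Pim3-/- over WT ESCs, as reported (black diamond) and under 10 other settings (coloured circles, open where the adjusted p was not under 0.05). No value crosses 0. Lef1 ranges from 1.76 to 3.48, and open circles appear for Otx2, Pou3f1 and Sox4.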

How the data were processed

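RNA-seq libraries of E14 ESCs, 2 from WT cultures and 2 from Pim3-/- clones, were used. The authors deposited raw counts per gene, without normalization. The paper names Cutadapt, Hisat2 and mm10, whereas the submitters' processing notes name Trim Galore, STAR, featureCounts and GRCm38. Strand and multi-mapping settings are not given in the sources used here. A table of transposable elements was not used here.

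Genes were filtered (filterByExpr, minimum count 10, minimum total 15), scaled by TMM and compared with the quasi-likelihood test of edgeR 4.0.16 in R 4.3.3, without covariates. Benjamini-Hochberg adjustment ran over 18444 genes, called at an adjusted p-value under 0.05. The SE is the size of the log2 fold change divided by the square root of F. The script was tested on simulated data. Alternatives were DESeq2 1.42.0 (size factors, Wald test), library totals, no filter, at least 10 counts in every library, a replicate block and each library left out. Positions and exon lengths came from the GENCODE annotation of GRCm38 (55303 of 55418 symbols matched to 1 gene).

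The markers and lists were chosen with earlier results of these data known. From each other list, up to 4 called genes were named, those of largest change whose higher group had a minimum of 10 counts per library, besides paralogs, FGF receptors, genes not called whose level was needed and the 2 genes most like each marker. Further genes, which complete counts of 5 or fewer, define a cell type or overlap a marker, were chosen after their values were seen. Some genes that these lists count are not reported here by name.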

Additional observations from a re-analysis of the deposited data

How the results depend on the processing

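Over 10 alternatives for each of the 6 tested markers, 53 of 60 values kept their direction and call, 7 kept the direction but lost the call, and none reversed. Zic2, Lef1 and Sox3 were called under every alternative run. Otx2 and Sox4 lost the call without either WT library, and Pou3f1 also with library totals, under which 0 markers were called lower by edgeR (0 also at an unadjusted p under 0.05, 1 by the Wald test of DESeq2 with its own scaling), the median of the markers was 2.02, 9 other formative and primed genes were called higher and 1 lower, and 1 naive gene was called lower. Library totals shifted the median of all tested genes by 0.45 and gave 6606 genes called higher and 1092 lower, so that 85.8% of calls were higher, beside 52.1% (3246 and 2987) with TMM. With at least 10 counts in every library, 2 naive genes were called lower. With 1 library left out, the markers called higher ranged from 3 to 5 and those called lower from 0 to 1, their median from 1.11 to 1.65, the other formative and primed genes called higher from 1 to 7 and lower from 1 to 5, and the naive genes called higher from 0 to 3 and lower from 1 to 8. Where these counts were 0, edgeR gave 1 marker lower and 2 naive genes higher at an unadjusted p under 0.05. Over all genes, 402 were called higher and 373 lower without WT replicate 1, 585 and 1061 without WT replicate 2, 5393 and 5255 without Pim3-/- replicate 1 and 4883 and 4846 without Pim3-/- replicate 2. The single library left in a group is then assumed to vary like the other group, and without a Pim3-/- library the prior degrees of freedom were infinite, so these counts of calls are not comparable.

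The replicate numbers are shared between the groups, but deviations of same-numbered libraries from their group means correlated at 0.0196, so the numbers were not taken as a pairing. A fit with the replicate number as a block called 3403 genes higher and 3272 lower. It called 5 markers higher and 1 lower with a median of 1.52, 4 and 3 of the other formative and primed genes, and 2 and 4 of the naive genes.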
